A study of Mus musculus with 24 samples.

Results

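Primary tumors (PT) grown from JygMC(A) mouse mammary carcinoma cells hold areas of epithelial carcinoma and areas of spindle-like cells, called EMT-like areas after the epithelial-mesenchymal transition. Both kinds of area were cut from the tumors by laser capture and their miRNAs were measured. The comparison takes every lane labelled carcinoma of the mammary tumors (5) and every lane labelled EMT of the mammary tumors (7), which are 12 of the 24 lanes of the series, and the 566 probes for mouse miRNAs. All 12 lanes came from young female Balb/C nude mice with no further treatment named, whose mammary fat pads had been injected with JygMC(A) cells carrying GFP and luciferase (JygMC(A)-GFP/Luc). Every tumor thus grew from the same cell line in hosts without a thymus, and the captured tissue may also hold host stroma, whose share was not measured. The 12 lanes carry 8 animal labels, of which 4 have both areas. Carcinoma replicate 1 and EMT-like replicate 1 share a label that names 3 animals (GB 70/GB 72/GA75), and each was treated as a single sample. The other labels with both areas are GB 71 (replicate 2 of both areas), 6516 (carcinoma replicate 4 and EMT-like replicate 3) and 6517 (carcinoma replicate 5 and EMT-like replicate 4). Carcinoma replicate 3 (GA 76) has no EMT-like partner, and EMT-like replicates 5, 6 and 7 come from 3 animals with no carcinoma lane. Labels that start with letters make up 3 carcinoma and 2 EMT-like lanes, and numbered labels make up 2 carcinoma and 5 EMT-like lanes.

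Each lane of the nCounter assay, which counts barcoded probes without amplification, gave a sum of mouse miRNA values of 115259 to 164785 in carcinoma and 111602 to 184501 in EMT-like areas. The detection limit of a lane, the mean plus 2 SD of its 6 negative control probes, lay between 8.76 and 20.6 in carcinoma and between 10.8 and 17.3 in EMT-like areas. Against these limits 150 to 227 mouse miRNAs were detected per carcinoma lane (median 156) and 200 to 258 per EMT-like lane (median 222; exact two-sided permutation test, p = 0.0303, adjusted over 10 lane measures 0.101). Against the highest of the 12 limits, used for every lane alike, the numbers were 150 to 157 in carcinoma and 162 to 183 in EMT-like areas, and the 2 ranges did not overlap (exact permutation test, p = 0.00253, adjusted p = 0.0253). Both counts used values before scaling between lanes, and the part of unequal lane signal in them was not tested. Scaling between lanes divided the carcinoma values by 0.732 to 1.04 and the EMT-like values by 0.928 to 1.28 (exact permutation p = 0.0126, adjusted p = 0.0631). Set against their labels, the lanes overlapped in the summed level of 7 epithelial markers (the miR-200 family, miR-203 and miR-205), which was 1017 to 5826 in carcinoma and 58.5 to 1578 in EMT-like areas. Carcinoma replicates 4 and 5, at 1017 and 1033, lay below EMT-like replicates 2 and 3, at 1578 and 1228. The counts of calls given below, 7 higher and 2 lower, were 10 and 5 without carcinoma replicate 4, 7 and 2 without carcinoma replicate 5, 11 and 5 without EMT-like replicate 2, and 8 and 3 without EMT-like replicate 3. Of the 566 probes, 130 were above the limit in all 12 lanes and 236 in none. Values of different probes are not set against each other as amounts, since probes differ in how well they capture their miRNA. Values below are scaled values, that is, the deposited counts above background after division by the lane factor, and fold changes are carcinoma over EMT-like on the scale of log2(scaled value + 10). The constant of 10 keeps values near the detection limit from dominating and makes the changes of low miRNAs look smaller than they are.

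A mature miRNA guides the silencing complex to messenger RNAs that pair with its seed, the bases 2 to 8 from its 5′ end, so miRNAs with the same seed share most of their possible targets. Many miRNA genes lie in clusters that are transcribed together. The miR-200 family holds epithelial cells in their state by repressing the transcription factors Zeb1 and Zeb2, which in turn repress the miR-200 genes, and this loop is the best known miRNA switch of the epithelial-mesenchymal transition. The miR-17-92 cluster and its relatives miR-106a-363 and miR-106b-25 are known as growth-promoting clusters that Myc and E2f factors activate.

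The sequences below are the RefSeq mature forms (GRCm38.p6) of the miRNAs on which the comparison turns, with the seed in capitals. Probes with an older name that states no arm were taken as the main arm of the hairpin. Of the 218 miRNA probes tested, 171 had a RefSeq entry. The miR-200 family lies in 2 clusters, with miR-200b, miR-200a and miR-429 at chr4:156053905-156055750 on the minus strand and miR-200c and miR-141 at chr6:124717914-124718390 on the minus strand, and it holds 2 seeds that differ in a single base. miR-203 is shown because it was called beside them.
miR-200b: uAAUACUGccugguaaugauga
miR-200c: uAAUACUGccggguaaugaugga
miR-429: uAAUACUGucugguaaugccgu
miR-200a: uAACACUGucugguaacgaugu
miR-141: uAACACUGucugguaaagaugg
miR-203: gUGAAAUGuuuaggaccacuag

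The growth-linked clusters lie at chr14:115043671-115044506 on the plus strand (miR-17-92), chrX:52741693-52742567 on the minus strand (miR-106a-363) and chr5:138165321-138165818 on the minus strand (miR-106b-25). They are shown because 4 of their members carry near-identical sequences, which the assay reads with joint probes (miR-106a/miR-17 and miR-20a/miR-20b), and because 6 members share 1 seed.
miR-17: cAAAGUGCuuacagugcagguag
miR-106a: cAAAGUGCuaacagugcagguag
miR-20a: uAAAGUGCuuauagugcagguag
miR-20b: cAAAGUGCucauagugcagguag
miR-106b: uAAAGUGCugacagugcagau
miR-93: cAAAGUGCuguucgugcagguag
miR-19a: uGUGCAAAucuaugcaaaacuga
miR-19b: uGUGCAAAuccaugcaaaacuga
miR-25: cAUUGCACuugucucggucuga

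miR-146a and miR-146b share a seed and differ outside it, as do miR-148a, miR-148b and miR-152. They are shown because members of each set had unlike fold changes, a contrast between probes that was not tested. miR-340-5p and the low-level miR-1928, miR-574-5p and miR-3471 are shown as the remaining miRNAs at the head of the test in either direction.
miR-146a: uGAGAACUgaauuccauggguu
miR-146b: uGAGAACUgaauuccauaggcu
miR-148a: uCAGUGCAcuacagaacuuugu
miR-148b: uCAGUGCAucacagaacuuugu
miR-152: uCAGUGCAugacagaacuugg
miR-340-5p: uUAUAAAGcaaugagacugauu
miR-1928: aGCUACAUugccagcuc
miR-574-5p: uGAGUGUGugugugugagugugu
miR-3471: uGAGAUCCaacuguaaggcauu

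Called higher in carcinoma than in EMT-like areas were 4 of the 5 miR-200 family members and miR-203, and beside them only miR-146b and miR-340-5p. The remaining family member, miR-141, also had a higher mean in carcinoma and missed the threshold (log2 fold change 1.54, limma adjusted p = 0.0674). Of the 218 miRNAs above the detection limit in at least 5 of the 12 lanes, 7 were called higher in carcinoma at a limma adjusted p under 0.05 (3.21% of those tested) and 2 were called lower (0.917%), miR-1928 and miR-574-5p, both at or under the detection limit in most carcinoma lanes. For both, the EMT-like lanes, where they are higher, were enough to pass the filter of 5 lanes. Their p-values are thus no independent support for a difference. The log2 fold changes of all tested miRNAs had a median of 0.01, with 111 above 0 (50.9%) and 107 below 0 (49.1%). Other scalings moved that median and the split of the calls. Without scaling it was -0.29, with 4 miRNAs called higher and 10 lower. Scaled by the positive controls it was -0.31, with 4 higher and 8 lower, and scaled by the miRNA total it was -0.13, with no call and 44 miRNAs at an unadjusted limma p under 0.05. In captured tissue, fewer cells of a type and less RNA per cell cannot be told apart. With the 12 primary tumor lanes fitted alone no miRNA passed the threshold, although 51 miRNAs had an unadjusted limma p under 0.05 there against 38 in the fit of all lanes, 21 on the higher (9.63%) and 17 on the lower side (7.8%). None was called either without carcinoma replicate 1, carcinoma replicate 3 or EMT-like replicate 7, with 32, 26 and 37 miRNAs at an unadjusted limma p under 0.05. Nothing beyond the animal label says how samples of an area were taken, so the p-values measure a spread between lanes. In the fit of all 24 lanes this spread is taken within the 7 conditions together, not within the 12 primary tumor lanes alone.

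Among the epithelial miRNAs, miR-200c measured 1589, 635, 1144, 305 and 299 in carcinoma replicates 1 to 5 and from 6.88 to 419 (median 60.4) in EMT-like areas. The 3 carcinoma lanes with lettered labels lay above every EMT-like lane, and the 2 with numbered labels lay within the EMT-like range. The mean of miR-200c was higher in carcinoma (log2 fold change 3.00, SE 0.64, limma adjusted p = 0.0177). miR-200b, the member with the highest values, measured 1782, 712, 1497, 269 and 255 in carcinoma replicates 1 to 5 and from 16.4 to 443 (median 111) in EMT-like areas (log2 fold change 2.58, SE 0.60, limma adjusted p = 0.0177), with the lanes split as for miR-200c. miR-429, from the same cluster as miR-200b, measured 1420.0, 657, 1137, 184 and 249.8 in carcinoma replicates 1 to 5 and from 0 to 404 (median 75.3) in EMT-like areas (log2 fold change 3.34, SE 0.81, limma adjusted p = 0.0184). It was listed at 0 in EMT-like replicates 5, 6 and 7 and stood at 75.3 or more in the remaining 4 EMT-like lanes.

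miR-200a measured 509, 209, 461, 43.7 and 59.4 in carcinoma replicates 1 to 5 and from 0 to 122 (median 35.6) in EMT-like areas (log2 fold change 2.46, SE 0.62, limma adjusted p = 0.0184). miR-141, with the same seed as miR-200a, measured 148, 82, 169, 4.1 and 54.6 in carcinoma replicates 1 to 5 and from 3.12 to 40.4 (median 27) in EMT-like areas and did not pass the threshold (log2 fold change 1.54, SE 0.49, limma adjusted p = 0.0674). Carcinoma replicate 4 alone fell into the EMT-like range of miR-141. All 5 members of the miR-200 family were tested, 4 were called higher, and their median log2 fold change was 2.58 against 0.01 over all tested miRNAs. miR-203, which is high in stratified epithelia and represses the stem cell factor p63, measured 349, 193, 267, 71 and 67.9 in carcinoma replicates 1 to 5 and from 6.24 to 105 (median 27) in EMT-like areas (log2 fold change 2.17, SE 0.49, limma adjusted p = 0.0177). miR-205, a miRNA of basal epithelial cells that also represses Zeb1 and Zeb2, did not follow them: it measured 28.8, 40.4, 16.3, 141 and 47.3 in carcinoma replicates 1 to 5 and from 14.8 to 82.6 (median 43.1) in EMT-like areas (log2 fold change 0.07, limma adjusted p = 0.935). The highest miR-205 value of the 12 lanes, 140.7, was in carcinoma replicate 4, which had the lowest miR-141 value of the carcinoma lanes.

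**Figure D1:**
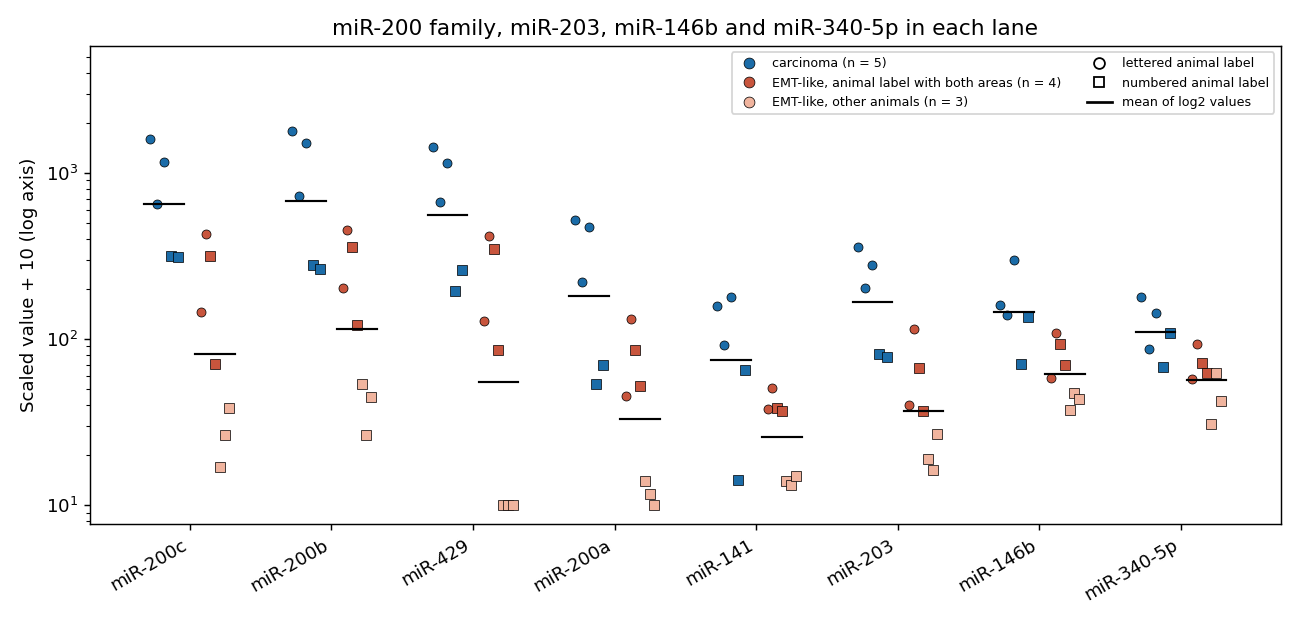
Scaled value + 10 (log axis) of the miR-200 family, miR-203, miR-146b and miR-340-5p in the 5 carcinoma lanes (blue) and the 7 EMT-like lanes (red for animal labels with both areas, pale for the 3 animals with no carcinoma lane). Circles are lettered and squares numbered animal labels, and bars are the means of the log2 values. The pale squares are the lowest points of miR-200a, miR-200b, miR-200c, miR-429 and miR-203.

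The EMT-like lanes were spread alike in every member of the miR-200 family and in miR-203, with replicates 2 and 3 the highest and replicates 5, 6 and 7 the lowest. Over EMT-like replicates 1 to 4, whose animal labels also have a carcinoma lane, miR-200c averaged 229, miR-200b 273 and miR-203 54.8. Over replicates 5 to 7 the averages were 17.2, 31.5 and 10.6. In the summed level of the 7 epithelial markers, EMT-like replicates 5 to 7 held 121, 58.5 and 127.8 and the remaining EMT-like lanes 383 to 1578. Some miRNAs outside the epithelial group also had a lower mean in these 3 lanes, such as miR-148a (779 against 1824) and miR-19a (200.2 against 345), while the means of miR-25 lay closer together (1149 against 1162). These contrasts among EMT-like lanes were not tested. Without replicates 5 to 7, a setting chosen after the data were seen, no miRNA was called, 22 had an unadjusted limma p under 0.05, and the median of the miR-200 family was 1.44.

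The third epithelial cluster, miR-183, miR-96 and miR-182, which is expressed in sensory and many glandular epithelia, had 3 of 3 members above 0 and none called (median log2 fold change 0.68). miR-96 measured 257, 186, 289.7, 98.3 and 226 in carcinoma replicates 1 to 5 and from 52.1 to 199 (median 115) in EMT-like areas (log2 fold change 0.70, SE 0.43, limma adjusted p = 0.382). Carcinoma replicates 1, 3 and 5 lay above every EMT-like lane, and replicates 2 and 4 lay within the EMT-like range.

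All 4 tested probes of the miR-17-92 cluster had higher means in carcinoma, by near-equal log2 fold changes of 0.71 to 0.82 (median 0.74), and none passed the threshold. miR-19a, whose seed sets it apart from the miR-17 seed, measured 501, 534, 624, 348 and 376 in carcinoma replicates 1 to 5 and from 139 to 509 (median 265) in EMT-like areas (log2 fold change 0.82, SE 0.25, limma adjusted p = 0.0638). miR-19b measured 307, 282, 235, 198 and 227 in carcinoma replicates 1 to 5 and from 76.5 to 224 (median 149) in EMT-like areas (log2 fold change 0.74, SE 0.27, limma adjusted p = 0.111). Of the 5 carcinoma lanes 4 lay above every EMT-like lane for miR-19b, against 2 for miR-19a.

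The joint probe miR-106a/miR-17 measured 2230.2, 1403, 1743, 974 and 1084 in carcinoma replicates 1 to 5 and from 537 to 1150.0 (median 776) in EMT-like areas (log2 fold change 0.75, SE 0.33, limma adjusted p = 0.211). The joint probe miR-20a/miR-20b measured 3301, 2044, 3119, 1386 and 1391 in carcinoma replicates 1 to 5 and from 961 to 1868 (median 1196) in EMT-like areas (log2 fold change 0.71, SE 0.43, limma adjusted p = 0.382). Both probes also read the miR-106a-363 cluster of the X chromosome, so the 2 loci cannot be told apart by them. The probes of miR-18a and miR-92a, the remaining miR-17-92 members, were above the detection limit in none of the 12 lanes, as were 2 of the 4 probes of the miR-106a-363 list.

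miR-106b, miR-93 and miR-25, which lie within Mcm7, a gene of the DNA replication machinery, gave log2 fold changes of 0.34, 0.57 and 0.66 (median 0.57), and none was called. miR-25, with the highest values of the cluster, measured 3432, 1424, 2613, 1049 and 1454 in carcinoma replicates 1 to 5 and from 924 to 1491 (median 1098) in EMT-like areas (log2 fold change 0.66, SE 0.29, limma adjusted p = 0.189). Its 2 highest values were those of carcinoma replicates 1 and 3, and the remaining 3 carcinoma lanes lay within the EMT-like range.

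**Figure D2:**
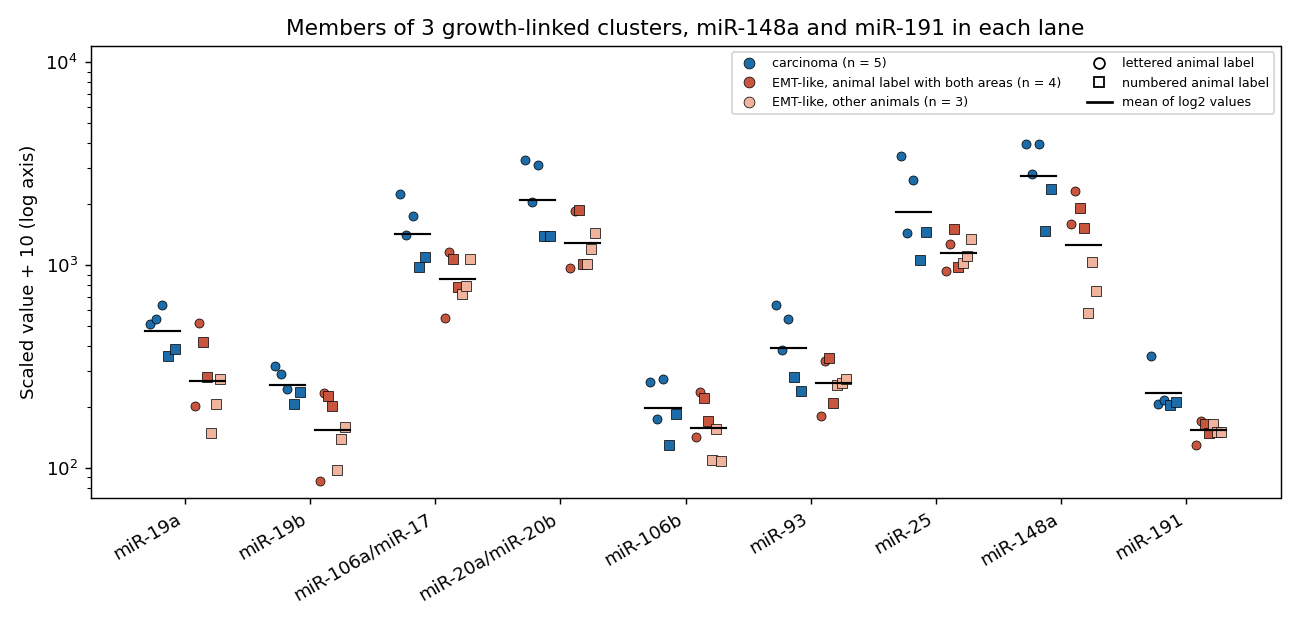
Scaled value + 10 (log axis) of the tested members of the miR-17-92, miR-106a-363 and miR-106b-25 clusters and of miR-148a and miR-191 in the 5 carcinoma lanes (blue) and 7 EMT-like lanes (red and pale). Circles are lettered and squares numbered animal labels, and bars are the means of the log2 values. Carcinoma circles are the highest points for most members, carcinoma squares mostly overlap the EMT-like lanes, and miR-191 alone shows no overlap between the areas.

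miR-146b was the called miRNA outside the epithelial lists with the largest fold. It measured 150.0, 129.9, 289.7, 60.1 and 125 in carcinoma replicates 1 to 5 and from 27.5 to 98.8 (median 48.5) in EMT-like areas and was 2.37-fold higher in carcinoma (log2 fold change 1.25, SE 0.31, limma adjusted p = 0.0184). Of the 5 carcinoma lanes 4 exceeded every EMT-like lane, and carcinoma replicate 4, at 60.1, did not. Its relative miR-146a, which carries the same seed from another chromosome and is induced by NF-kB signalling, measured 355, 241, 373, 811 and 1084 in carcinoma replicates 1 to 5 and from 527 to 823 (median 684) in EMT-like areas and gave a log2 fold change of -0.44 (limma adjusted p = 0.461). In miR-146a the lettered carcinoma lanes were the 3 lowest of the 12 and carcinoma replicate 5 the highest.

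miR-340-5p measured 169, 76.6, 132, 57.4 and 98.2 in carcinoma replicates 1 to 5 and from 20.6 to 82.7 (median 52.1) in EMT-like areas (log2 fold change 0.95, SE 0.27, limma adjusted p = 0.0437). Carcinoma replicates 2 and 4 lay within the EMT-like range. miR-148a, for which the DNA methyltransferase Dnmt1 is a described target, had an unadjusted p under 0.05 and did not pass the adjusted threshold. It measured 3972, 2812, 3959, 1467 and 2369 in carcinoma replicates 1 to 5 and from 574 to 2300.0 (median 1511) in EMT-like areas (log2 fold change 1.13, SE 0.43, limma adjusted p = 0.143). Carcinoma replicates 1, 2, 3 and 5 exceeded all EMT-like lanes. Of its seed relatives, miR-148b gave a log2 fold change of 0.25 and miR-152 one of -0.32, and neither was called (limma adjusted p = 0.627 and 0.592).

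A single tested miRNA, 0.459% of the 218, had all carcinoma lanes above all EMT-like lanes. This was miR-191, chosen here after its values were seen, at 348, 198, 207, 195 and 202 in carcinoma replicates 1 to 5 and from 119.7 to 161 (median 140.5) in EMT-like areas (log2 fold change 0.61, SE 0.20, limma adjusted p = 0.0832). Its neighbour miR-425, in the same intron of Dalrd3, gave a log2 fold change of 0.39 (limma adjusted p = 0.292). miR-154, of the imprinted Dlk1-Dio3 region, measured 352, 248, 284, 224 and 264 in carcinoma replicates 1 to 5 and from 131 to 243 (median 201) in EMT-like areas (log2 fold change 0.56, SE 0.19, limma adjusted p = 0.0898), with 4 of 5 carcinoma lanes above all EMT-like lanes. Its list otherwise leaned the opposite way, with 11 of 13 tested probes below 0. The joint probe miR-466a-3p/miR-466b-3-3p, of the repeat-derived cluster within Sfmbt2, measured 54, 38.3, 37.4, 21.8 and 14.6 in carcinoma replicates 1 to 5 and from 0 to 34.1 (median 10.1) in EMT-like areas (log2 fold change 1.12, SE 0.33, limma adjusted p = 0.0551), where 4 carcinoma and 3 EMT-like lanes were above their limits.

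The miRNAs with the smallest p-values on the lower side had small values, and 8 of the 10 were at the detection limit in most carcinoma lanes. Carcinoma replicates 1, 3 and 4 had scaled limits of 19.8 to 26.9, above the 9.31 to 14.3 of the EMT-like lanes, and the part of these limits in the numbers of lanes above them was not tested. miR-1928 measured 3.6, 10.6, 0.959, 8.19 and 1.21 in carcinoma replicates 1 to 5 and from 12 to 29.5 (median 14.8) in EMT-like areas, with 1 of 5 carcinoma and 6 of 7 EMT-like lanes above the limit (log2 fold change -0.98, SE 0.25, limma adjusted p = 0.0184). Its carcinoma lanes all lay below its EMT-like lanes, as did those of miR-3471, and these were the 2 such miRNAs among the 218 tested (0.917%). miR-574-5p, from an intron of Fam114a1, was not detected in any carcinoma lane and was above the limit in 7 of 7 EMT-like lanes, at 0, 7.45, 0, 17.8 and 7.28 in carcinoma replicates 1 to 5 and from 12.5 to 42 (median 17.1) in EMT-like areas (log2 fold change -0.98, SE 0.27, limma adjusted p = 0.0357). Its mean in EMT-like areas was 1.15 times the mean of the carcinoma detection limits, a ratio that takes no account of the spread between lanes. Carcinoma replicate 4, at 17.8, lay above the EMT-like median. miR-574-5p passed the filter through EMT-like lanes alone.

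miR-3471 measured 12, 11.7, 4.8, 9.56 and 12.1 in carcinoma replicates 1 to 5 and from 15.5 to 34.5 (median 20.6) in EMT-like areas (log2 fold change -0.67, SE 0.20, limma adjusted p = 0.0536). miR-34b-5p, of the p53-activated miR-34 group, measured 6, 5.32, 3.84, 0 and 15.8 in carcinoma replicates 1 to 5 and from 9.82 to 22.6 (median 17.1) in EMT-like areas (log2 fold change -0.77, SE 0.23, limma adjusted p = 0.0551). Its cluster neighbour miR-34c, at 1145, 1213, 1170.1, 1797 and 1257 in carcinoma replicates 1 to 5 and from 814 to 1666 (median 980.3) in EMT-like areas, had a log2 fold change of 0.32 (limma adjusted p = 0.44), so these neighbours did not share a sign. miR-367, of the embryonic cluster of miR-302 and miR-367, was above the limit in no carcinoma lane and in 5 of 7 EMT-like lanes and was not called (limma adjusted p = 0.0876). Its mean in EMT-like areas was 1.03 times the mean of the carcinoma detection limits, and miR-367 passed the filter through EMT-like lanes alone. Of the 16 probes of the embryonic list, 13 were above the limit in none of the 12 lanes.

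**Figure D3:**
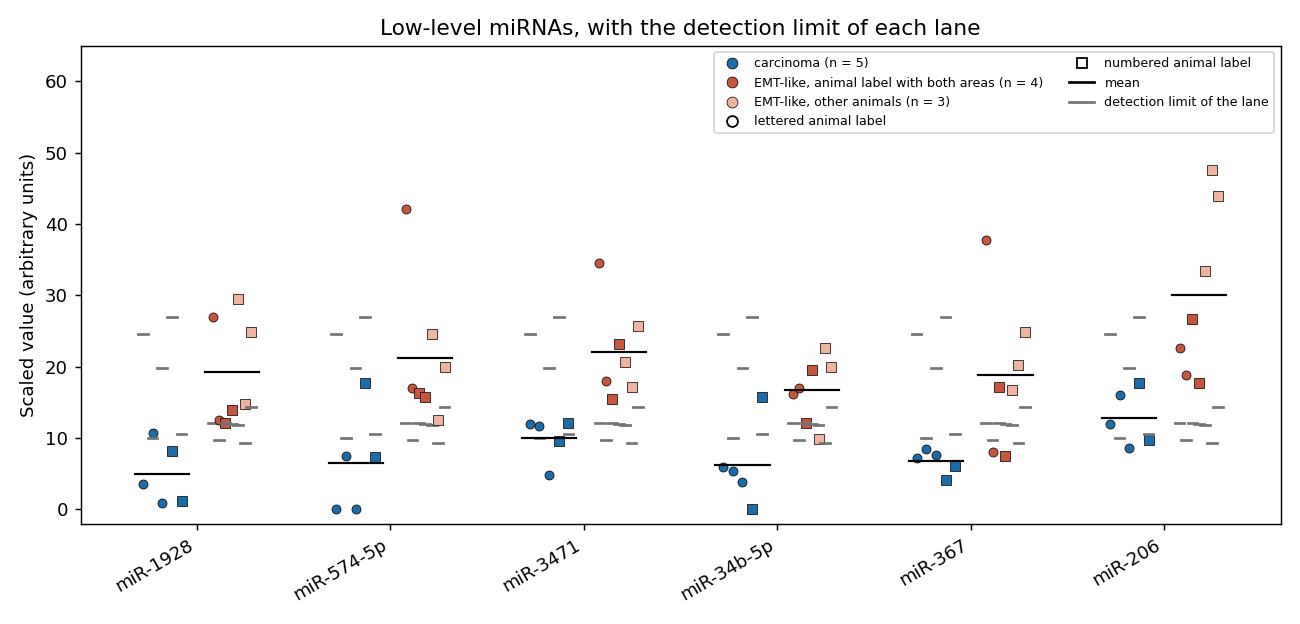
Scaled value (linear axis) of miR-1928, miR-574-5p, miR-3471, miR-34b-5p, miR-367 and miR-206 in the 5 carcinoma lanes (blue) and 7 EMT-like lanes (red and pale). Black bars are group means, and short grey bars are the scaled detection limit of the lane beside each point. Most carcinoma points lie under their own limit, and 3 carcinoma lanes have higher limits than any EMT-like lane.

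Of the lower miRNAs that every lane detected, miR-132, a CREB-activated miRNA of neurons and endothelium, measured 73.2, 109, 63.3, 98.3 and 65.5 in carcinoma replicates 1 to 5 and from 95.9 to 196 (median 127) in EMT-like areas (log2 fold change -0.66, SE 0.22, limma adjusted p = 0.0876). miR-450a-5p, of the X-linked miR-322 and miR-503 cluster, measured 42, 20.2, 32.6, 31.4 and 50.9 in carcinoma replicates 1 to 5 and from 46.4 to 71 (median 57.7) in EMT-like areas (log2 fold change -0.64, SE 0.22, limma adjusted p = 0.0898). Both were below all 7 EMT-like lanes in 3 and 4 of the 5 carcinoma lanes, and neither passed the threshold. The remaining names among the 10 smallest p-values on this side were miR-338-5p, miR-335-3p and miR-1942. Of the carcinoma lanes 0, 1 and 1 were above the limit for them, against 5, 4 and 6 of the EMT-like lanes, and the limma adjusted p was 0.148, 0.167 and 0.171. miR-338-5p thus passed the filter through EMT-like lanes alone.

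The mesenchymal lists had no called member. miR-199a-3p, which with miR-214 is made from a transcript of fibroblasts and other mesenchymal cells, measured 1105, 571, 687, 1475 and 698 in carcinoma replicates 1 to 5 and from 828 to 1818 (median 988) in EMT-like areas (log2 fold change -0.30, SE 0.32, limma adjusted p = 0.616). Its list had a median of -0.30. miR-145, of smooth muscle and myofibroblasts, measured 841, 657, 674, 1041 and 1285 in carcinoma replicates 1 to 5 and from 764 to 1251 (median 951) in EMT-like areas (log2 fold change -0.16, SE 0.26, limma adjusted p = 0.774), and its list a median of -0.16, which turned to 0.01 when scaled by the 4 mRNA probes. miR-29a, whose family represses collagens, measured, as mean ± SD, 1329.9 ± 414 over the 5 carcinoma lanes and 1493 ± 326 over the 7 EMT-like lanes, with 3 of 3 members of the list below 0 (median -0.19).

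miR-10b, which lies in the Hoxd cluster and is activated by Twist1, measured 51.6, 39.4, 60.4, 86 and 97 in carcinoma replicates 1 to 5 and from 58.2 to 167 (median 112) in EMT-like areas (log2 fold change -0.70, SE 0.35, limma adjusted p = 0.292). The list of Hox-cluster miRNAs had 3 of 4 members below 0 (median -0.43), with miR-196b the exception (0.64). miR-221, which represses the cell cycle inhibitor p27, measured 195 ± 74.6 over the 5 carcinoma lanes and 234 ± 96.7 over the 7 EMT-like lanes, and the list miR-221 and miR-222 had a median of -0.39. Of the 59 probes of the Dlk1-Dio3 imprinted cluster 13 were tested, with a median of -0.25, and 25 were above the limit in no lane. miR-322, of the X-linked cluster, measured 102 ± 39.6 over the 5 carcinoma lanes and 127.6 ± 28.7 over the 7 EMT-like lanes, and its list, with 3 of 9 probes tested, had a median of -0.33. Each of these medians was below that of all tested miRNAs, 0.01. Within the lettered labels the medians of the miR-199, miR-145, miR-29 and X-linked lists were -0.77, -0.48, -0.35 and -0.59 (-0.07 over all tested). Within the numbered labels they were 0.07, 0.33, 0.08 and 0.24 (0.09 over all tested). The medians of the Hox-cluster, miR-221 and Dlk1-Dio3 lists were -0.52, -0.42 and -0.38 within the lettered labels. Within the numbered labels they were -0.32, -0.01 and -0.06. These splits of the lists were not tested.

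None of the markers of other cell types was called. The endothelial miR-126-3p, from an intron of Egfl7, measured 1629, 914, 1755, 1753 and 1360.4 in carcinoma replicates 1 to 5 and from 1342 to 2704 (median 2053) in EMT-like areas (log2 fold change -0.47, SE 0.28, limma adjusted p = 0.363), and both arms of miR-126 were below 0 (median -0.52). The leukocyte markers miR-142, miR-150, miR-155 and miR-223 summed to 520.5 to 1106 in carcinoma and 615 to 811 in EMT-like areas, with 5 of 5 probes tested and carcinoma replicates 4 and 5 the highest of all lanes. The wider leukocyte list of 7 probes had a median of -0.08 and holds miR-146b, its single call. The smooth muscle and fibroblast markers miR-143, miR-145, miR-199a and miR-214 summed to 1629 to 3235 in carcinoma and 2097 to 3745 in EMT-like areas. The erythroid markers miR-144, miR-451 and miR-486 summed to 91.5 to 200.1 in carcinoma and 91.3 to 287 in EMT-like areas, and miR-451 had a log2 fold change of -0.11 (limma adjusted p = 0.866). Of the striated muscle markers miR-1 was above the limit in no lane, and miR-206 measured 12, 16, 8.63, 17.8 and 9.7 in carcinoma replicates 1 to 5 and from 17.7 to 47.6 (median 26.7) in EMT-like areas (log2 fold change -0.78, SE 0.33, limma adjusted p = 0.183). The highest miR-206 values were those of EMT-like replicates 5 to 7. Whether cells of any of these types have a part in the miRNAs named above was not tested.

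No member of the families with the highest values was called. Of the 9 let-7 probes, a family that restrains Ras and Lin28, 8 were above 0 (median 0.10, which was -0.25 without scaling), and let-7c measured 10239 ± 1641 over the 5 carcinoma lanes and 10260.0 ± 1173 over the 7 EMT-like lanes. The 5 tested probes of the miR-30 family were all above 0 (median 0.30, and -0.02 when scaled by the positive controls), with miR-30c at 450.1, 321, 490.1, 336 and 472 in carcinoma replicates 1 to 5 and from 131 to 352 (median 314) in EMT-like areas (log2 fold change 0.55, SE 0.29, limma adjusted p = 0.292). miR-125b-5p measured 6158 ± 1687 over the 5 carcinoma lanes and 5542 ± 1945 over the 7 EMT-like lanes, and the median of miR-99, miR-100 and miR-125 was 0.02. miR-21, abundant in most carcinomas, measured 3586 ± 1508 over the 5 carcinoma lanes and 3840.1 ± 1079 over the 7 EMT-like lanes, and the 6 single tumor-linked miRNAs had a median of -0.20.

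miR-16 measured 2089.7 ± 409 over the 5 carcinoma lanes and 2239.5 ± 428 over the 7 EMT-like lanes, miR-23a 2846 ± 1568 over the 5 carcinoma lanes and 2712 ± 304 over the 7 EMT-like lanes and miR-181a 1162 ± 271 over the 5 carcinoma lanes and 961 ± 147 over the 7 EMT-like lanes. The medians of their families were 0.26, -0.05 and 0.25, of which the miR-15 and miR-16 median and the miR-181 median fell below 0 when scaled by the positive controls (-0.06 and -0.01) and the miR-23, miR-24 and miR-27 median rose to 0.12 when scaled by the 4 mRNA probes. miR-26b measured 148 ± 53.1 over the 5 carcinoma lanes and 112 ± 20.5 over the 7 EMT-like lanes (median of miR-26 and miR-101 -0.09). The miR-130 and miR-301 family, which shares a seed, had a median of 0.26 (-0.06 without scaling), and miR-130a, its member with the highest values, measured 498 ± 117 over the 5 carcinoma lanes and 555 ± 117 over the 7 EMT-like lanes. None of these miRNAs was called.

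miR-720, a fragment of a transfer RNA rather than a miRNA, had the highest values of its list at 37740.3 ± 5924 over the 5 carcinoma lanes and 33143 ± 5670.3 over the 7 EMT-like lanes, and the fragment list of 14 tested probes had a median of 0.14. Its member miR-2133 stood apart with the lowest fold change of all 218, measuring 262, 158, 315, 76.5 and 369 in carcinoma replicates 1 to 5 and from 189.6 to 1314 (median 507) in EMT-like areas (log2 fold change -1.11, SE 0.61, limma adjusted p = 0.307). The repeat-derived list of the Sfmbt2 type had 7 of 33 probes tested and a median of 0.04, with miR-466g at 94.8 ± 14.3 over the 5 carcinoma lanes and 79.9 ± 21.9 over the 7 EMT-like lanes.

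**Figure D4:**
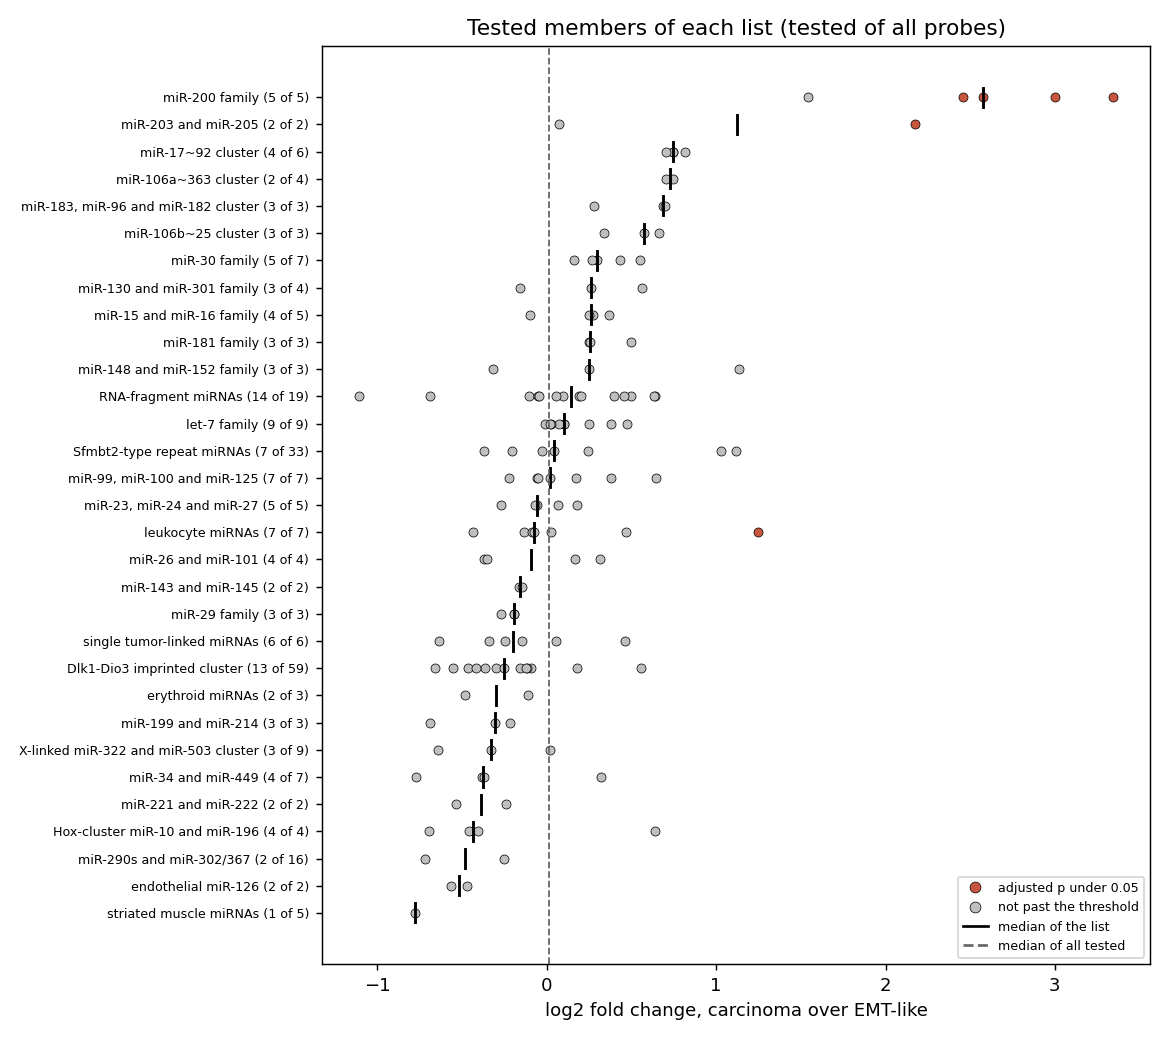
Log2 fold change (carcinoma over EMT-like) of each tested member of the 31 lists, with the number tested of all probes beside the name, the median of each list as a black bar and the median of all tested miRNAs as a dashed line. Red points passed the limma threshold. Lists of epithelial and growth-linked miRNAs lie at the top, and lists of endothelial, muscle and Hox-cluster miRNAs at the bottom.

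Grouped by position instead of by list, 35 sets of tested probes shared a hairpin or lay within 10 kb of each other on one strand of GRCm38.p6. Some sets share probes, since a mature miRNA or a joint probe can stem from several loci, as with miR-17-92 and miR-106a-363 or the 2 loci of miR-181a and miR-181b, so the sets are not independent. In 13 of the 35 every probe was above 0, in 9 every probe was below 0 and in 13 the signs were mixed. The 6 highest medians belonged to the 2 miR-200 clusters, miR-17-92, miR-106a-363, the miR-183 cluster and miR-106b-25. At the lower end stood the arms of miR-335, in an intron of the imprinted gene Mest, with log2 fold changes of -0.69 and -0.69. The arms of miR-574 had the next lowest median, from unlike values of -0.98 for miR-574-5p, near the detection limit, and -0.11 for miR-574-3p.

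Within the 4 animal labels that have both areas, the mean differences of the miR-200 family and of miR-203 were smaller than between the groups as a whole. For miR-200c the carcinoma minus EMT-like differences in log2(scaled value + 10) were 3.47, 0.59, 0.00 and 2.14 for GB 70/GB 72/GA75, GB 71, 6516 and 6517, a mean of 1.55 ± 1.56 (SD, n = 4). In 6516 the carcinoma and EMT-like areas had the same miR-200c value within 1 unit (305 and 304). Of the 218 miRNAs 12 were higher in carcinoma in 4 of 4 labels (5.5%), among them miR-200c and miR-203 (3.16, 0.82, 0.28 and 1.08). miR-429 (3.48, 0.69, -0.83 and 1.61), miR-200b (3.14, 0.67, -0.35 and 1.13) and miR-146b (1.45, 0.36, -0.40 and 0.96) were higher in 3 of 4 and lower in 6516, in the same order of labels.

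In miR-191 the 4 differences were 1.47, 0.28, 0.32 and 0.51, and in miR-154 0.74, 0.03, 0.15 and 0.61. Lower in carcinoma in 4 of 4 labels were 16 of the 218 miRNAs (7.34%), among them miR-132 (-0.35, -0.47, -0.33 and -0.65), miR-10b (-0.15, -1.09, -0.06 and -0.19), miR-450a-5p (-0.12, -1.14, -0.71 and -0.40) and miR-1928 (-1.44, -0.13, -0.28 and -1.09). With 4 pairs the smallest two-sided p of a sign-flip test is 0.125, so these values carry no test of their own. A limma fit with the animal label as a block called 3 of 218 miRNAs (1.38%): miR-200c (log2 fold change 1.55, adjusted p = 0.0152) and miR-203 (1.33, adjusted p = 0.0152) as higher, and miR-2133 (-1.48, adjusted p = 0.0152) as lower in carcinoma. In the blocked fit the limma adjusted p was 0.103 for miR-200b, 0.0737 for miR-429, 0.218 for miR-200a and 0.663 for miR-146b. Only the 4 labels with both areas inform the difference in that fit. Its p-values draw on a spread that limma shares across the 218 miRNAs, not on the 4 differences of each miRNA alone.

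**Figure D5:**
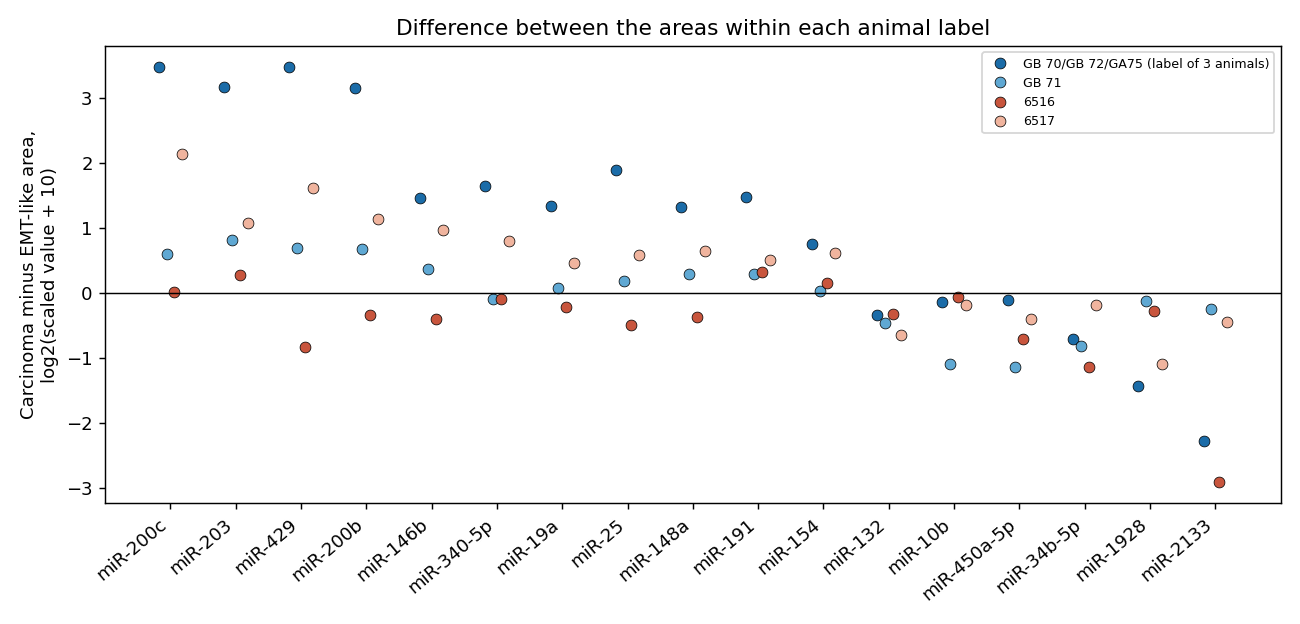
Difference between the carcinoma and EMT-like lane of each of the 4 animal labels with both areas, on the scale of log2(scaled value + 10), for 17 miRNAs. Points above 0 are higher in carcinoma. The label of 3 animals (dark blue) shows the largest positive differences of miR-200c, miR-203, miR-429 and miR-200b, and 6516 (red) lies below 0 for 7 of the 11 miRNAs from miR-200c to miR-154.

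The animal labels with letters and with numbers hold the areas in unequal shares, so the differences were also taken within each. miR-200c differed by 2.09 within the lettered labels (3 carcinoma, 2 EMT-like) and by 2.59 within the numbered ones (2 carcinoma, 5 EMT-like), and miR-146b by 1.24 and 0.83. The miR-106b-25 cluster had a median of 1.04 within the lettered and 0.08 within the numbered labels, and miR-17-92 1.02 and 0.37. miR-146a had opposite signs, -1.04 and 0.48. A limma test asked whether the carcinoma minus EMT-like difference was itself unlike in the 2 kinds of label. No miRNA passed it (lowest adjusted p = 0.284, 18 with an unadjusted p under 0.05). With the kind of label as a term, miR-203 alone was called (log2 fold change 1.71, limma adjusted p = 0.0279), and miR-200c had an adjusted p of 0.0573.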

How the data were processed

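RNA from laser-captured areas was measured on the nCounter mouse miRNA assay. The deposited values were whole-number barcode counts from which, as the values show, the mean of 6 negative controls of each lane had been subtracted, without scaling between lanes. They are not raw counts, so no count model was used. Of 618 probes, the 566 for mouse miRNAs were kept. Each lane was scaled by the trimmed mean of M values over all 24 lanes (30% of ratios and 5% of levels trimmed), written in Python 3.11.15 with numpy 2.4.6, and values under 0 were set to 0. Probes that exceeded the detection limit (negative controls, mean + 2 SD) in at least 5 of the 12 lanes were tested (218) as log2(value + 10) with limma 3.58.1 (R 4.3.3; eBayes with a trend) over the 7 conditions of 24 lanes, with Benjamini-Hochberg adjustment over all 218 and a threshold of 0.05. Alternatives covered scaling, background, filter, added constant, samples, animal block and each lane left out. The scaling and the fit were checked on simulated data of independent lanes, without effects of animal or kind of label. That check does not cover such effects.

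Pairing comes from the animal labels. Deviations of the carcinoma and EMT-like lanes of a label correlated with a median r of 0.0714 (4 pairs, -0.378 to 0.262), against 0.302 (12 pairs) for lanes of different animals of the same kind of label and -0.173 (19 pairs) across kinds.

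Named were the called miRNAs, the 10 of smallest p in each direction and the member of each list with the highest mean. miRNAs named beyond this, such as miR-191, miR-425, miR-2133, miR-205, miR-148b and miR-152, were chosen after their values were seen. The members and lists were chosen with earlier results of these data known.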

Additional observations from a re-analysis of the deposited data

Results flagged for a closer look

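Single lanes stood apart from the rest of their area in 5 of the 98 groups of values tested for a lone extreme value by Dixon's criterion, a rate near the 1 in 20 that chance gives. miR-199a-3p was 1818 in EMT-like replicate 2, above the other EMT-like lanes. miR-322 was 73.7 and miR-30c 131 in EMT-like replicate 5, both below the other EMT-like lanes. miR-34c was 1797 in carcinoma replicate 4, above the other carcinoma lanes. miR-125b-5p was 9782 in EMT-like replicate 6, above the other EMT-like lanes.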

How the results depend on the processing

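The counts depended on the samples and the scaling. Against 7 miRNAs called higher and 2 lower in carcinoma, there were 4 and 10 without scaling, 4 and 8 scaled by the positive controls, 4 and 0 scaled by the 100 miRNAs of highest value, 3 and 0 scaled by the 4 mRNA probes (14 at an unadjusted limma p under 0.05), 4 and 7 with the detection limit taken as background, 4 and 2 with 1 added in place of 10, 6 and 4 with a filter of 20 or more in 2 or more lanes, 6 and 1 over the 16 tumor lanes, and 17 and 8 with lane quality weights. There were 0 and 0 scaled by the miRNA total (44 at an unadjusted limma p under 0.05), with TMM over the 12 lanes (50), over the 12 lanes alone (51) and without the 2 lanes whose label names 3 animals (36), and 0 and 1 with no filter (72). Over the lanes left out one at a time, the counts ran from 0 to 11 higher and from 0 to 5 lower. They were 0 and 0 without carcinoma replicate 1, carcinoma replicate 3 or EMT-like replicate 7, 1 and 0 without EMT-like replicate 5, 11 and 5 without EMT-like replicate 2, and 10 and 5 without carcinoma replicate 4. Without EMT-like replicate 1 they were 6 and 1. In settings chosen after the data were seen, they were 0 and 0 over the 8 lanes of animal labels with both areas (14 at an unadjusted limma p under 0.05) and without EMT-like replicates 5 to 7 (22). The animal label as a fixed block over the 12 lanes gave 2 and 1, as a random block over 24 lanes 7 and 2, and the kind of label as a term 1 and 0. The random block estimated a correlation of 0.0049 between lanes of a label, so that fit was nearly the main fit. No called miRNA changed its sign in any of the 34 alternatives, and the number in which it was called ran from 9 (miR-340-5p) to 23 (miR-200c). The cause of these changes was not tested.

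The named miRNAs whose log2 fold change changed sign were not called in the comparison. Without scaling these were miR-34c -0.026, miR-26b -0.0034, miR-125b-5p -0.18, miR-181a -0.094, miR-466g -0.068 and miR-720 -0.16, by the positive controls miR-34c -0.052, miR-26b -0.028, miR-125b-5p -0.20, miR-181a -0.12, miR-466g -0.091 and miR-720 -0.18, by the 100 miRNAs of highest value miR-125b-5p -0.071 and miR-720 -0.051, by the mRNA probes miR-145 0.024, miR-451 0.047, miR-16 0.092, miR-130a 0.029, let-7c 0.18, miR-23a 0.12 and miR-21 0.041, with the detection limit as background miR-125b-5p -0.065, miR-466g -0.035 and miR-720 -0.044, by TMM against an EMT-like lane let-7c 0.0013, by TMM over 12 lanes let-7c 0.024, and by lane weights let-7c 0.013. With the replicate block they were miR-145 0.055, miR-16 0.020 and miR-130a 0.0020, with the same values over the 8 lanes alone (miR-145 0.055, miR-16 0.020 and miR-130a 0.0020), with the kind of label as a term miR-16 0.024 and miR-23a 0.087, and without EMT-like replicates 5 to 7 miR-16 0.0060, miR-130a 0.026 and let-7c 0.042. Over the lanes left out one at a time, miR-16 ran from -0.20 to 0.020, miR-23a from -0.35 to 0.14 and miR-21 from -0.35 to 0.0053, each above 0 without carcinoma replicate 2. let-7c ran from -0.066 to 0.066, above 0 without carcinoma replicates 2 or 5 or EMT-like replicates 2, 5 or 6, and miR-451 from -0.26 to 0.019, above 0 without carcinoma replicate 4 or EMT-like replicate 4. The medians of the miR-200 family, the miR-17-92 cluster (0.38 to 0.92) and the miR-106b-25 cluster (0.21 to 0.76) kept their sign in every alternative. Values near the detection limit of a lane, as of miR-1928 and miR-574-5p, carry the most counting error.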

Other observations

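Further miRNAs had an unadjusted limma p under 0.05 without passing the adjusted threshold, and they were named after their values were seen. miR-669f, a repeat-derived miRNA of Sfmbt2, measured 85.2, 127.7, 55.6, 64.2 and 65.5 in carcinoma replicates 1 to 5 and from 13.3 to 90.7 (median 31.2) in EMT-like areas (log2 fold change 1.03, SE 0.33, limma adjusted p = 0.0765). It was higher in carcinoma in 4 of 4 animal labels with both areas, as were 12 of the 218 tested miRNAs (5.5%). miR-181c, from a locus apart from miR-181a and miR-181b, measured 43.2, 26.6, 51.8, 28.7 and 26.7 in carcinoma replicates 1 to 5 and from 14.4 to 31.3 (median 24.2) in EMT-like areas (log2 fold change 0.50, SE 0.19, limma adjusted p = 0.131), also higher in 4 of 4. miR-99a, whose hairpin lies beside that of let-7c at chr16:77598936-77599750, measured 1185, 532, 838, 616 and 799 in carcinoma replicates 1 to 5 and from 386 to 577 (median 527) in EMT-like areas (log2 fold change 0.64, SE 0.31, limma adjusted p = 0.282), while let-7c had a log2 fold change of -0.01. miR-301a measured 194, 163, 193, 120.2 and 129 in carcinoma replicates 1 to 5 and from 59.9 to 137 (median 103) in EMT-like areas (log2 fold change 0.56, SE 0.20, limma adjusted p = 0.111) and was higher in 3 of 4.

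On the lower side, miR-214 measured 20.4, 17, 0, 50.5 and 14.6 in carcinoma replicates 1 to 5 and from 22.3 to 46.4 (median 33.6) in EMT-like areas (log2 fold change -0.69, SE 0.29, limma adjusted p = 0.183), and 3 of 5 carcinoma and 7 of 7 EMT-like lanes were above the limit. Its highest value, 50.5, was in carcinoma replicate 4. miR-335-5p, from Mest, measured 27.6, 41.5, 47, 139 and 55.8 in carcinoma replicates 1 to 5 and from 43.1 to 129.96 (median 98.5) in EMT-like areas (log2 fold change -0.69, SE 0.31, limma adjusted p = 0.227). The leukocyte miRNA miR-142-5p had the opposite sign, at 42, 33, 53.7, 68.3 and 52.1 in carcinoma replicates 1 to 5 and from 22.6 to 42 (median 34.4) in EMT-like areas (log2 fold change 0.47, SE 0.20, limma adjusted p = 0.183), and the 3p arm of the same hairpin had a log2 fold change of -0.13.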
